A study of Mus musculus with 11 samples.

Results

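Glucocorticoid-responsive genes around Zbtb16 were examined in the gingival epithelium of adult mice, to see whether Zbtb16 and Rasd1 rise alone or together with the other genes of the same hormone response, mouse by mouse. The 9 genes were taken by name: Zbtb16, Rasd1, Fkbp5, Tsc22d3, Sgk1, Klf9, Mt1 and Mt2, all described as targets of the glucocorticoid receptor, and Nr3c1, which encodes the receptor. All 9 had values, out of 55414 genes listed and 19170 with a value. They were picked with the difference between the groups already known, so that this difference is given below as a description, with its fold change and standard error and no p.

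All 11 mice were langerin-DTR mice, in which the promoter of langerin, a lectin of Langerhans cells (LCs), drives the diphtheria toxin (DT) receptor, so that the toxin kills cells that express langerin. The control group consisted of 5 mice given PBS and the depleted group of 6 mice given DT. The injections fell on postnatal days 17, 24 and 31, and tissue was taken at 8 weeks of age, by which time the study describes the LCs as having returned. There was no group of mice without the transgene, so the toxin itself and the loss of LCs cannot be told apart. The library numbers in the labels run through the PBS mice first and the DT mice after, so any effect that follows these numbers and the treatment cannot be told apart either. Each value is a normalized count, meaning the reads of a gene divided by a size factor for the depth of that mouse.

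Glucocorticoids are steroid hormones of the adrenal gland, corticosterone being the main one in mice. They enter the cell and bind the glucocorticoid receptor, which is held by heat shock chaperones in the cytoplasm, moves to the nucleus and binds short palindromic elements near its target genes. In stratified epithelia the hormone restrains inflammation and proliferation, and its level in blood follows the time of day and rises with stress.

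Promoter sequence was available for 6 of the 9 genes, in 13 windows of 250 bases before to 50 bases after a start of transcription (RefSeq, GRCm38.p6). Zbtb16, Rasd1 and Nr3c1 had none. The windows were searched on both strands for the full palindrome of the receptor, AGAACA and TGTTCT with any 3 bases between them, for a relaxed form of it, GNACA and TGTNC with any 3 bases between them, which every full palindrome also matches, and for the core of the metal response element in 2 forms, TGCGCNC and TGCACNC. The full palindrome was present in 0.00913% of the 32851 mouse promoter windows, that is in 3 of them, and the relaxed form in 0.475%. One of the 3 was a window of Sgk1, 5th of its 6. The metal cores were common, at 15.4% and 12.6% of windows. The 250 bases before the start are printed for Sgk1, Mt1 and Mt2 because these genes carry the receptor or metal elements in their promoters and can be set against their counts. Capitals mark the matches.
Sgk1, chr10:21993640-21993889, plus strand: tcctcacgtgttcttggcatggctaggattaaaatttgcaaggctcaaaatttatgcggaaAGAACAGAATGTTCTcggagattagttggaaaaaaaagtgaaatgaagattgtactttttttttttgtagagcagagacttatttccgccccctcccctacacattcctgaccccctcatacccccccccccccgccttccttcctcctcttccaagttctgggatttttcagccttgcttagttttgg
Mt1, chr8:94178839-94179088, plus strand: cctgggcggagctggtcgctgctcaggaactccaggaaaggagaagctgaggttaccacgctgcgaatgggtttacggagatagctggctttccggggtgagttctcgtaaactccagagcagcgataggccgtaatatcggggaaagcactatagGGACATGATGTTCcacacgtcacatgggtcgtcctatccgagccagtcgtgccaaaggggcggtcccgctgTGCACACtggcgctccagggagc
Mt2, chr8:94172368-94172617, plus strand: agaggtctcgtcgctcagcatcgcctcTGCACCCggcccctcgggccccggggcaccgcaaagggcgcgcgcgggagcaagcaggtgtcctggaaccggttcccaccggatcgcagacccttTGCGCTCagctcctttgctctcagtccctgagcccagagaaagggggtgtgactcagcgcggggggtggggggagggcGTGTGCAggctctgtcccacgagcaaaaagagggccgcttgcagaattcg
In Sgk1 the capitals are the full palindrome, which begins 189 bases before the start. In Mt1 they are the relaxed palindrome, 94 bases before the start, and a metal core at 23 bases, and in Mt2 they are metal cores at 223, 128 and 50 bases. The windows of Fkbp5, Tsc22d3 and Klf9 held none of these 4 motifs, which says only that these letters are absent from those bases. A match is a run of letters and not a shown site of binding.

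Zbtb16, which encodes the BTB zinc finger transcription factor PLZF and is strongly induced by glucocorticoids in many cells, was the gene of the 9 with the largest difference. It had 6.79, 8.75, 7.04, 34.6 and 5.25 normalized counts in PBS 1 to 5, and 29.8, 54.9, 87.6, 84.8, 131 and 88.4 in DT 1 to 6. Of the DT mice, 5 of 6 were above the highest PBS mouse, and only DT 1 was below it. The PBS mean was 12.5 ± 12.4 (SD, n = 5) and the DT mean 79.5 ± 34.5 (SD, n = 6). The log2 fold change was 2.79 (SE 0.42). PBS 4 was the one control mouse away from the rest. Without it the PBS mean was 6.96 ± 1.43 (SD, n = 4), the highest control had 8.75, and the log2 fold change was 3.22 (SE 0.32).

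These are low counts, and the counting error is part of the spread. PBS 5 had 5 reads on Zbtb16 and DT 5 had 134. The 38 reads of PBS 4 correspond to 34.6 normalized counts with an exact Poisson interval of 24.5 to 47.5 (95%, counting error only), which includes the 29.8 of DT 1 but lies above the interval of 4.00 to 16.6 of PBS 2, the next highest control. The high value of PBS 4 among controls is thus beyond counting error, whereas the order of PBS 4 and DT 1 is not.

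Rasd1 (dexamethasone-induced Ras-related protein 1), a small GTPase named for its induction by a synthetic glucocorticoid, was higher after DT in every mouse. It had 9.05, 11.7, 19.1, 39.2 and 17.8 normalized counts in PBS 1 to 5, and 56.2, 43.1, 52.4, 60.1, 61.8 and 85.8 in DT 1 to 6. The groups did not overlap, which held with DT higher for 0.902% of all genes, although PBS 4 (39.2) lay just under DT 2 (43.1), within counting error. The PBS mean was 19.4 ± 11.8 (SD, n = 5) and the DT mean 59.9 ± 14.3 (SD, n = 6). The log2 fold change was 1.72 (SE 0.29), or 2.01 (SE 0.24) without PBS 4. The control mouse that was high in Zbtb16 was therefore also high in Rasd1.

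**Figure D1:**
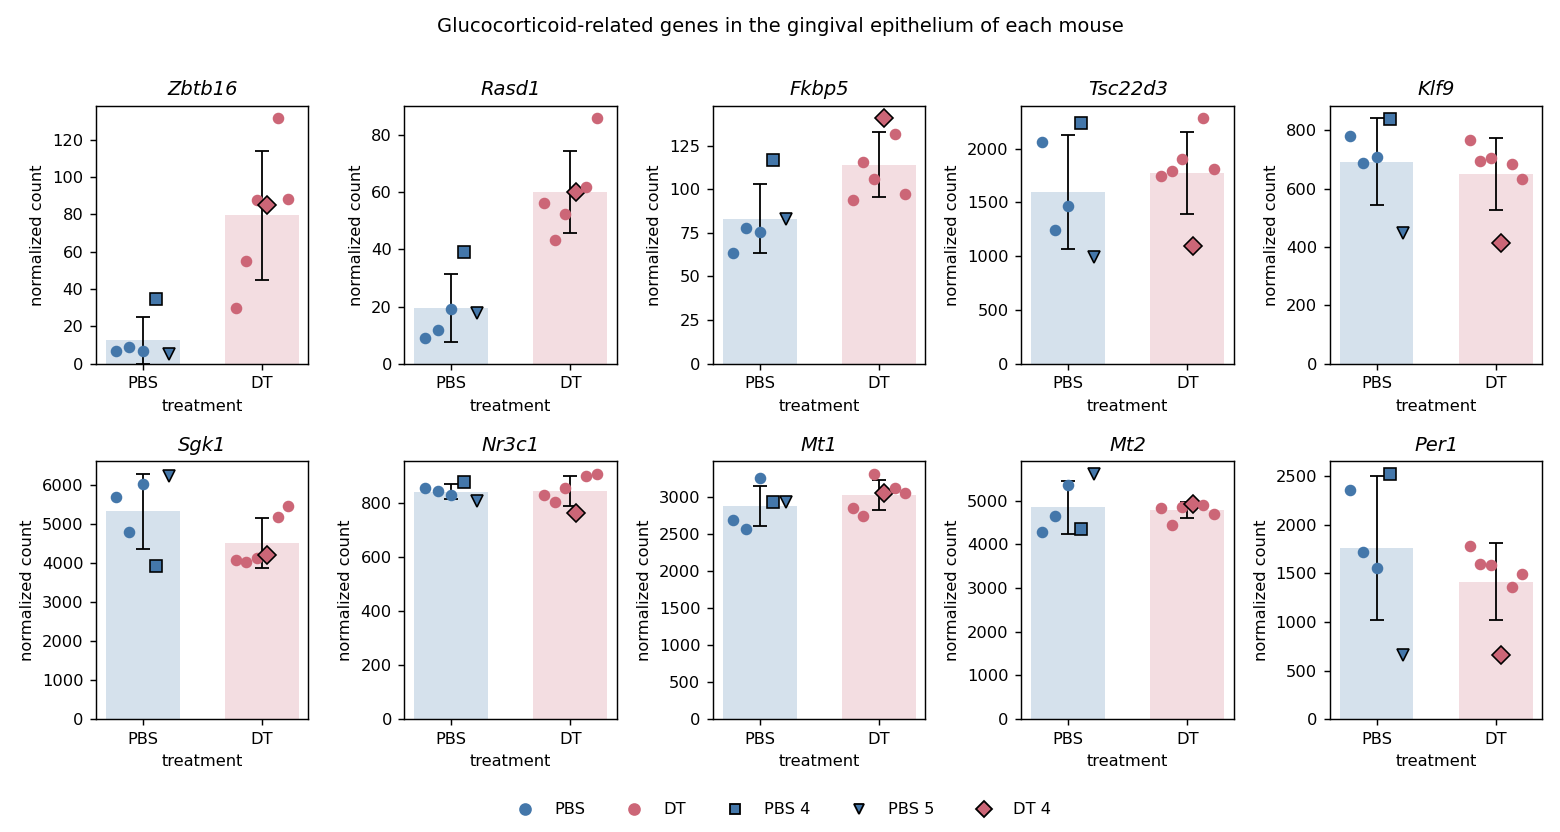
Normalized counts (linear axis from 0) of the 9 genes and of Per1 in each mouse after PBS (blue) or DT (red); bars are group means and whiskers are SD (n = 5 and 6), and PBS 4, PBS 5 and DT 4 have symbols of their own. Zbtb16 and Rasd1 are low in every PBS mouse but PBS 4, while Tsc22d3, Klf9 and Per1 are lowest in PBS 5 and DT 4.

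Fkbp5, a co-chaperone that lowers the affinity of the receptor for hormone and is among the most used transcriptional readouts of glucocorticoid action, showed a smaller difference in the same direction. It had 63.4, 77.7, 75.4, 117 and 82.9 normalized counts in PBS 1 to 5, and 94.0, 116, 106, 141, 131 and 97.1 in DT 1 to 6. PBS 4 was again the highest control, and it lay among the DT mice. The other 4 control mice lay between 63.4 and 82.9 normalized counts. The log2 fold change was 0.47 (SE 0.15) with all mice and 0.59 (SE 0.14) without PBS 4.

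Tsc22d3 (GILZ), an anti-inflammatory leucine zipper protein and a direct target of the receptor, spread as widely within groups as between them. It had 2061, 1243, 1463, 2234 and 993 normalized counts in PBS 1 to 5, and 1745, 1790, 1899, 1098, 2281 and 1807 in DT 1 to 6. The groups overlapped over nearly their whole range. The log2 fold change was 0.18 (SE 0.20).

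Klf9, a Krüppel-like transcription factor induced by glucocorticoids in epidermis, had a log2 fold change of -0.09 (SE 0.16). It had 781, 687, 710, 839 and 450 normalized counts in PBS 1 to 5, and 768, 694, 704, 413, 685 and 633 in DT 1 to 6. A single mouse of each group stood low, PBS 5 and DT 4, and the remaining 9 mice lay between 633 and 839.

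Sgk1, a kinase that regulates ion channels and is a classical early target of glucocorticoids and mineralocorticoids, was the member with the lowest fold change. The 5th of its 6 promoter windows holds the full palindrome printed above. Which start of transcription is used in this tissue was not tested. Sgk1 had 5687, 4792, 6012, 3910 and 6215 normalized counts in PBS 1 to 5, and 4081, 4027, 4117, 4214, 5182 and 5468 in DT 1 to 6. Here PBS 4 was the lowest of all mice. The log2 fold change was -0.23 (SE 0.11), and -0.33 (SE 0.10) without PBS 4.

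The metallothioneins Mt1 and Mt2 bind zinc and copper and are induced by metals as well as by glucocorticoids. Mt1 lay between 2565 and 3260 normalized counts after PBS and between 2742 and 3316 after DT (log2 fold change 0.07, SE 0.06). Mt2 lay between 4286 and 5616 after PBS and between 4446 and 4923 after DT (log2 fold change -0.01, SE 0.07). Both pairs of ranges overlapped, in genes whose promoters hold metal cores and, in Mt1, the relaxed palindrome.

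The receptor itself had the narrowest range of the 9 transcripts over all 11 mice, the highest value being 1.19 times the lowest, although among the DT mice alone Mt2 varied less (CV 3.78%, against 6.63% for Nr3c1). Nr3c1 had 854, 843, 829, 876 and 805 normalized counts in PBS 1 to 5, and 828, 804, 856, 762, 898 and 907 in DT 1 to 6. The log2 fold change was 0.00 (SE 0.06).

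Set beside each other, the 9 genes did not move as a block. With limma, fitted over 19170 genes with Benjamini-Hochberg adjustment and a threshold of 0.1, 2 of the 9 were past the threshold, Zbtb16 and Rasd1, both higher, where 0.558% of all genes were (107 genes, 60 higher and 47 lower). Since the genes were picked on this contrast, nothing is read from that count. The median log2 fold change of the 9 was 0.07, against -0.01 over all genes.

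The wider programme was then counted in lists of other genes, which were likewise drawn up with results of these data known. Among 12 targets of the receptor that are also stress or immediate early genes, 3 rose and 0 fell, where 0.313% of all genes rose. They were Zfp36, which encodes an mRNA-destabilizing protein (log2 fold change 1.10, SE 0.17, adjusted p = 0.0093, limma), Dusp1, a phosphatase of MAP kinases (1.02, SE 0.15, adjusted p = 0.0083), and Gadd45b, a stress protein (0.38, SE 0.08, adjusted p = 0.055). Zfp36 and Dusp1 passed in all 11 fits that each left out 1 mouse, and Gadd45b in 6, its call being lost without DT 1 (adjusted p = 0.12), DT 4 (0.12), DT 5 (0.11), PBS 1 (0.14) or PBS 2 (0.14). For Dusp1, PBS 4 was the highest control at 7255 normalized counts, under the 8057 of the lowest DT mouse. The median log2 fold change of the 12 was 0.17, and over the 12 and the targets described next the count of calls rose from 3 to 5 without PBS 3. Per1, a clock gene and direct target of the receptor, did not pass (-0.24, SE 0.30, adjusted p = 0.81), nor did Nfkbia, the inhibitor of NF-κB (0.35, SE 0.09, adjusted p = 0.16), Bcl3, a nuclear cofactor of NF-κB (-0.34, SE 0.13, adjusted p = 0.31), or Cebpb, a transcription factor (0.23, SE 0.09, adjusted p = 0.35).

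Among 27 targets not known as immediate early genes, 0 rose and 0 fell with limma, 5 had an unadjusted p under 0.05 (11.5% of all genes did), and the median log2 fold change was 0.03. The smallest p belonged to Ddit4, an inhibitor of mTOR signalling that glucocorticoids induce, which averaged 826 ± 71.5 normalized counts in 5 PBS mice and 663 ± 77.4 in 6 DT mice (SD; log2 fold change -0.32, SE 0.08, adjusted p = 0.145). Sesn1, another restraint on mTOR signalling, had a log2 fold change of 0.28 (SE 0.09, adjusted p = 0.25), and Snai2, a transcription factor of migrating keratinocytes, one of 0.36 (SE 0.13, adjusted p = 0.29). The forkhead factor Foxo3 (0.15, SE 0.06, adjusted p = 0.32), the transporter Slc10a6 (0.14, SE 0.06, adjusted p = 0.39) and the repressor Bcl6 (0.28, SE 0.16, adjusted p = 0.52) followed. Without PBS 4, Ddit4 passed at -0.37 (adjusted p = 0.073). The 28th gene of this list, Hif3a, had no value.

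**Figure D2:**
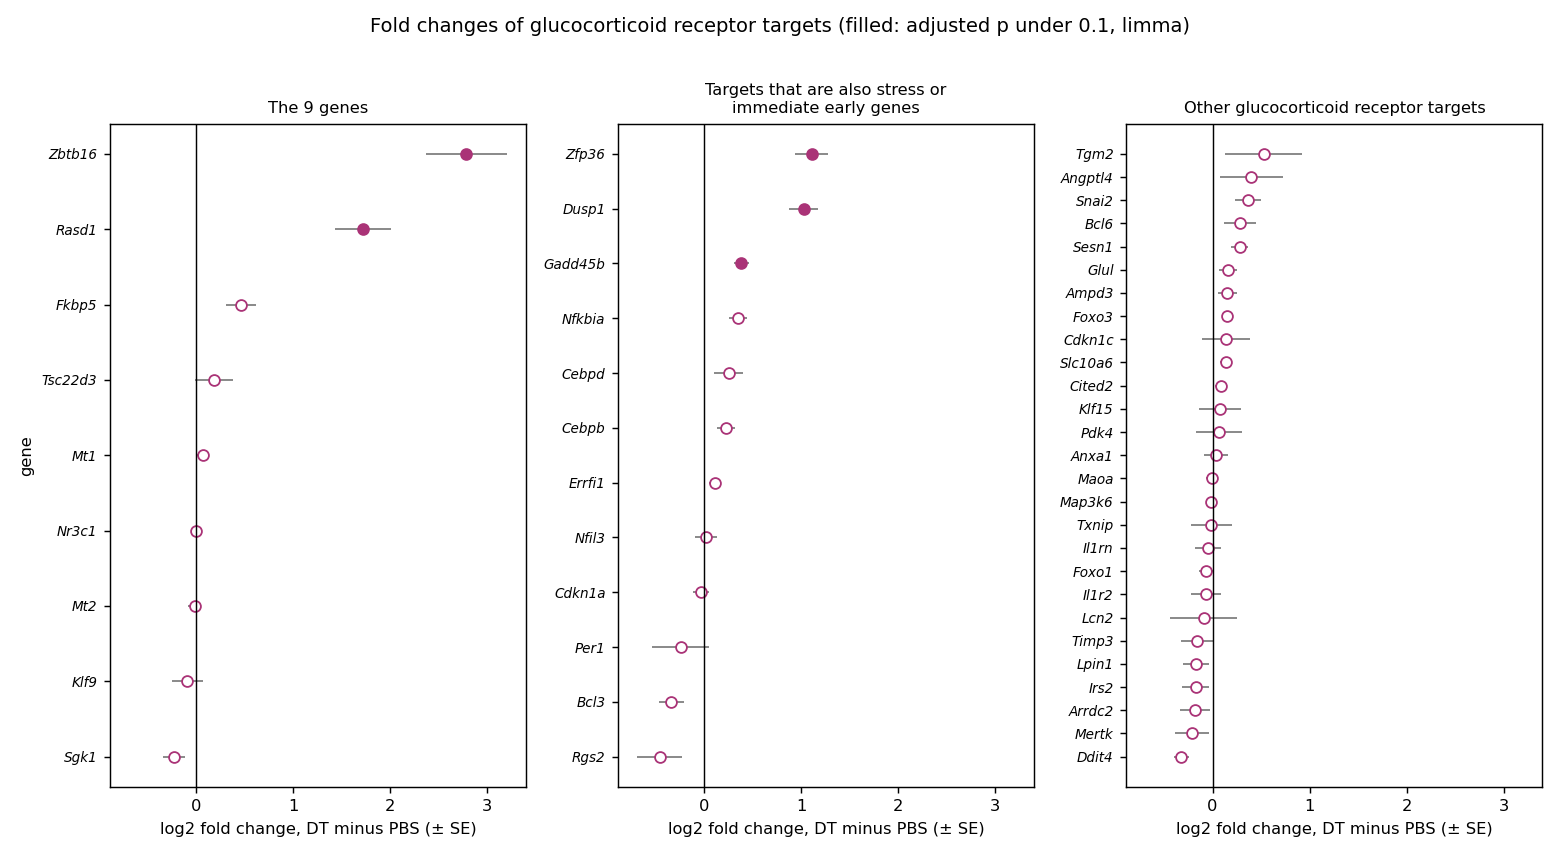
Log2 fold change after DT relative to PBS, on the log2(normalized count + 1) scale, for the 9 genes (left), 12 targets that are also stress or immediate early genes (middle) and 27 other targets (right); points are limma estimates, whiskers are standard errors and filled points passed an adjusted p of 0.1. Filled points are Zbtb16 and Rasd1 on the left and Zfp36, Dusp1 and Gadd45b in the middle, while the right panel has none.

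What the receptor needs to act was also measured. The 14 genes were those for the related mineralocorticoid receptor, the enzymes that activate or inactivate the hormone, the chaperones and the coregulators. Of these, 0 passed with limma and 2 had an unadjusted p under 0.05 (11.5% of all genes did). These 2 were Hsp90aa1, the stress-inducible form of the HSP90 chaperone (log2 fold change 0.13, SE 0.05, adjusted p = 0.36), and Ncor1, a corepressor (-0.12, SE 0.05, adjusted p = 0.41). Nr3c2, the mineralocorticoid receptor, averaged 12.1 ± 1.70 normalized counts in 5 PBS mice and 15.6 ± 4.17 in 6 DT mice (SD). Hsd11b1, which regenerates active hormone inside cells, was at 2.50 ± 2.15 (SD, n = 5) and 2.99 ± 3.11 (SD, n = 6), so that a difference in local hormone conversion at the transcript level was not detectable at this depth.

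Around the metallothioneins, 0 of 9 genes of the metal and oxidative stress response passed with limma. Only 1 had an unadjusted p under 0.05 (11.5% of all genes did). This was Gclc, the catalytic subunit of glutathione synthesis (log2 fold change 0.20, SE 0.07, adjusted p = 0.29), which passed only in the fit without PBS 4 (0.25, adjusted p = 0.0996). Mtf1, the transcription factor that reads metals, had a log2 fold change of -0.06 (SE 0.05, adjusted p = 0.67). Mt3 and Mt4, the other metallothioneins, had log2 fold changes of -0.00 (SE 0.21) and 0.03 (SE 0.08). Slc30a10 had no value.

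Genes listed around both leading genes did not pass either. Of 8 other BTB zinc finger genes 0 passed with limma and 2 had an unadjusted p under 0.05 (11.5% of all genes did). They were Zbtb20 (log2 fold change -0.52, SE 0.17, adjusted p = 0.24) and Zbtb17 (0.14, SE 0.06, adjusted p = 0.37). Of the 5 genes listed around Rasd1 (Rasd2, Nos1ap, Rhebl1, Rheb and Gpsm2), 0 passed and 0 had an unadjusted p under 0.05. Among 16 circadian clock genes 0 passed with limma and 5 had an unadjusted p under 0.05, a larger share than the 11.5% of all genes. They were led by Bhlhe41, a repressor of the clock (-0.83, SE 0.29, adjusted p = 0.27), and Cry1 (-0.28, SE 0.10, adjusted p = 0.28).

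Of the lists, that of immediate early genes, which cells switch on within minutes of a stimulus, had the most calls. It too was drawn up with results of these data known, so that its count is a description. Of its 23 genes 12 rose and 0 fell, where 0.313% of all genes rose and 0.245% fell, with a median log2 fold change of 0.68. The count was 6 without DT 5 or without DT 6, and 7 without PBS 1 or without PBS 2. Fos, a subunit of AP-1, rose by a log2 fold change of 1.70 (SE 0.26, adjusted p = 0.0090, limma), Ier2 by 0.75 (SE 0.09, adjusted p = 0.0048), and Atf3, a stress-induced repressor, by 2.68 (SE 0.41, adjusted p = 0.0093). Jun and Junb, the partners of Fos in AP-1, rose by 1.11 (SE 0.17, adjusted p = 0.0090) and 0.68 (SE 0.09, adjusted p = 0.0082), and Btg2, an antiproliferative gene, by 0.76 (SE 0.10, adjusted p = 0.0082). These 6 genes had the smallest p of the list. The log2 fold change was positive in 21 of the 23, and negative in Egr3 (-0.04, SE 0.15) and Nr4a3 (-0.26, SE 0.21). Atf3 had 170, 154, 131, 731 and 107 normalized counts in PBS 1 to 5, and between 751 and 2680 after DT. PBS 4 thus stood near the DT mice in Atf3 as it did in Zbtb16, Rasd1 and Fkbp5.

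An immediate early score was therefore given to each mouse, as the mean over the 23 genes of the log2 value minus the mean over all mice. The score was between -0.90 and -0.48 in PBS 1, 2, 3 and 5, and 0.14 in PBS 4. In the DT mice it was between 0.13 and 0.88, so that PBS 4 lay inside the range of the DT group. The part of the immediate early response in the levels of Zbtb16 and Rasd1 was not tested.

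**Figure D3:**
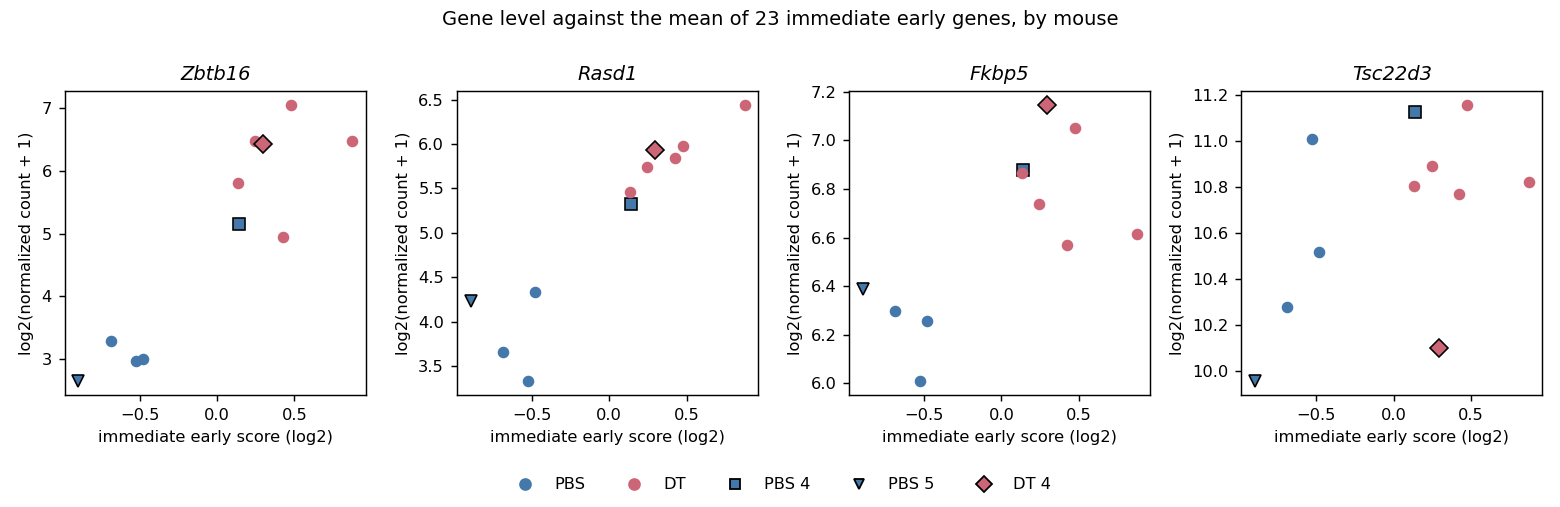
Log2(normalized count + 1) of Zbtb16, Rasd1, Fkbp5 and Tsc22d3 against the immediate early score of the same mouse (log2, mean of 23 genes about their means), PBS in blue and DT in red. PBS 4 lies with the DT mice on the horizontal axis and near or among them on the vertical axis in the first 3 panels, while Tsc22d3 of DT 4 is low at a score of 0.29.

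Whether the genes move together was asked within the groups, from the distance of each mouse to the mean of its own group, which the choice of the genes did not use. With 11 mice, 86400 orders of the mice within groups were enumerated in an exact two-sided permutation test, and p was adjusted over the 36 pairs of genes. Zbtb16 and Rasd1 had a Pearson r of 0.64 (exact permutation p = 0.084, adjusted p = 0.44) and a Spearman rho of 0.50 (exact permutation p = 0.15, adjusted p = 0.48). Without the 2 mice farthest from the median of Zbtb16, PBS 4 and DT 1, r was 0.16. Zbtb16 and Fkbp5 had an r of 0.74 (exact permutation p = 0.031, adjusted p = 0.25) and a rho of 0.58 (exact permutation p = 0.088, adjusted p = 0.44), and r was 0.12 without the same 2 mice. No pair of Zbtb16 or Rasd1 with another of the 9 genes passed, and the relations among Zbtb16, Rasd1 and Fkbp5 rest largely on PBS 4. Without that mouse alone r was 0.14 for Zbtb16 with Rasd1, 0.46 for Zbtb16 with Fkbp5 and 0.16 for Rasd1 with Fkbp5. Rasd1 had its highest rho with Mt1, 0.66 (exact permutation p = 0.058, adjusted p = 0.42), at an r of 0.50. Its r with Sgk1 was -0.18, but 0.88 without PBS 1 and PBS 4, the 2 mice farthest from the median of Rasd1.

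Zbtb16 and Nr3c1 had an r of 0.48 (exact permutation p = 0.11, adjusted p = 0.44) and a rho of 0.65 (exact permutation p = 0.031, adjusted p = 0.37), a higher rho than that of Zbtb16 with Rasd1 or Fkbp5. Tsc22d3 and Nr3c1 had an r of 0.75 (exact permutation p = 0.0013, adjusted p = 0.047) and a rho of 0.74 (exact permutation p = 0.0020, adjusted p = 0.072), the only pair of the 36 past 0.05 in Pearson correlation. Tsc22d3 and Klf9 had the highest r, 0.87 (exact permutation p = 0.0030, adjusted p = 0.053), and a rho of 0.76 (exact permutation p = 0.020, adjusted p = 0.36). Without PBS 5 and DT 4, the 2 mice farthest from the median of Tsc22d3, r was 0.48 and 0.61, so that both relations were weaker without these mice. Klf9 and Nr3c1 had an r of 0.62 (exact permutation p = 0.035, adjusted p = 0.25). Their rho was 0.30 (exact permutation p = 0.39, adjusted p = 0.72), and r was -0.16 without the same 2 mice. The call of Tsc22d3 with Nr3c1 held in 2 of the 11 fits that left out 1 mouse, those without DT 1 and without DT 6, where r over all 11 fits lay between 0.60 and 0.84. DT 4, low in Tsc22d3 and Klf9, had 84.8 normalized counts of Zbtb16 and 60.1 of Rasd1, values in the middle of its group, and the highest Fkbp5 of all mice (141).

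Per1 singled out the same mice. It had 2360, 1721, 1552, 2524 and 663 normalized counts in PBS 1 to 5, and 1785, 1599, 1589, 662, 1361 and 1495 in DT 1 to 6. PBS 5 and DT 4 were thus the lowest of their groups in Tsc22d3, Klf9, Nr3c1 and Per1 alike, by log2 distances from the group mean of -0.62 and -0.66 for Tsc22d3, -0.59 and -0.62 for Klf9, -0.06 and -0.14 for Nr3c1, and -1.27 and -1.03 for Per1. This pattern was seen in the values and then described, with no test. Of the clock genes, Ciart and Cry2, both repressors of the clock, were also lowest of their groups in PBS 5 and DT 4, with 30.4 and 16.1 normalized counts of Ciart and 644 and 628 of Cry2. Nr1d1 and Nr1d2, the REV-ERB receptors, were lowest of their group in PBS 5 (1434 and 560) but not in DT 4 (2500 and 886). Going the other way, Cry1, Per2 and Bhlhe41 were highest of their group in PBS 5 (471, 138 and 127). They were not high in DT 4. Its Cry1 (295) and Per2 (67.6) lay just above those of the lowest DT mouse, DT 2 (294 and 66.7). Its Bhlhe41 was 51.5, where the DT mice had 19.1 to 82.3. Pdk4, a receptor target, was highest of its group in both PBS 5 and DT 4 (214 and 280). All these clock genes and Pdk4 were picked after their values were seen.

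**Figure D4:**
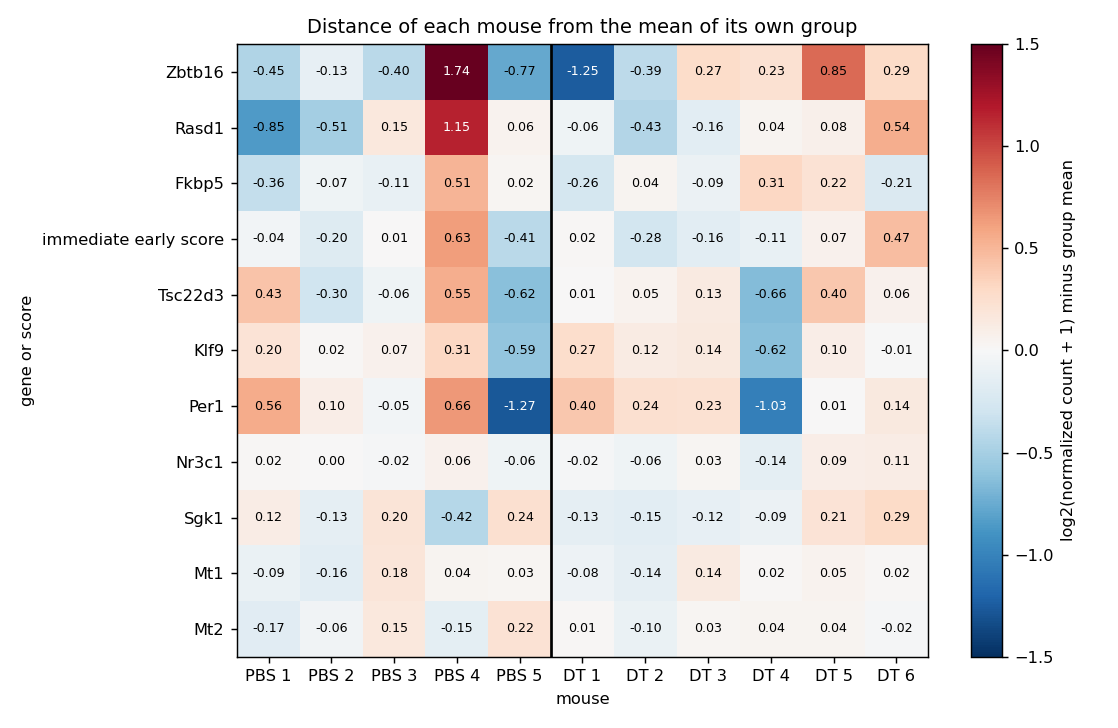
Log2(normalized count + 1) minus the mean of the same treatment group for each mouse (columns) and gene or score (rows), red above and blue below the group mean. PBS 4 is above its group in Zbtb16 (1.74), Rasd1 (1.15) and Fkbp5 (0.51), and PBS 5 and DT 4 are below theirs in Tsc22d3, Klf9 and Per1.

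Against the immediate early score, none of the 9 genes passed an adjusted p of 0.05 over 9 relations in the groups together. The smallest p was that of Nr3c1, with an r of 0.65 (exact permutation p = 0.012, adjusted p = 0.11) and the highest rho of the 9, 0.68 (exact permutation p = 0.027, adjusted p = 0.25). For Tsc22d3 r was 0.61 (exact permutation p = 0.072, adjusted p = 0.16). Rasd1 had an r of 0.75 (exact permutation p = 0.024, adjusted p = 0.11) and a rho of 0.65 (exact permutation p = 0.056, adjusted p = 0.25), with an r of 0.73 without PBS 1 and PBS 4. Without PBS 4 alone the r of Rasd1 was 0.45, and without PBS 5 it was 0.87 and passed (exact permutation p = 0.0032, adjusted p = 0.029). In the 6 DT mice alone it was 0.95 (exact permutation p = 0.0069, adjusted p = 0.063). For Zbtb16 r was 0.66 (exact permutation p = 0.072, adjusted p = 0.16), and rho was 0.50 (exact permutation p = 0.15, adjusted p = 0.33). In the DT mice alone the r of Zbtb16 was 0.22 (exact permutation p = 0.64, adjusted p = 0.80). Whether Rasd1 and Zbtb16 differ in their relation to the score was not tested.

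**Figure D5:**
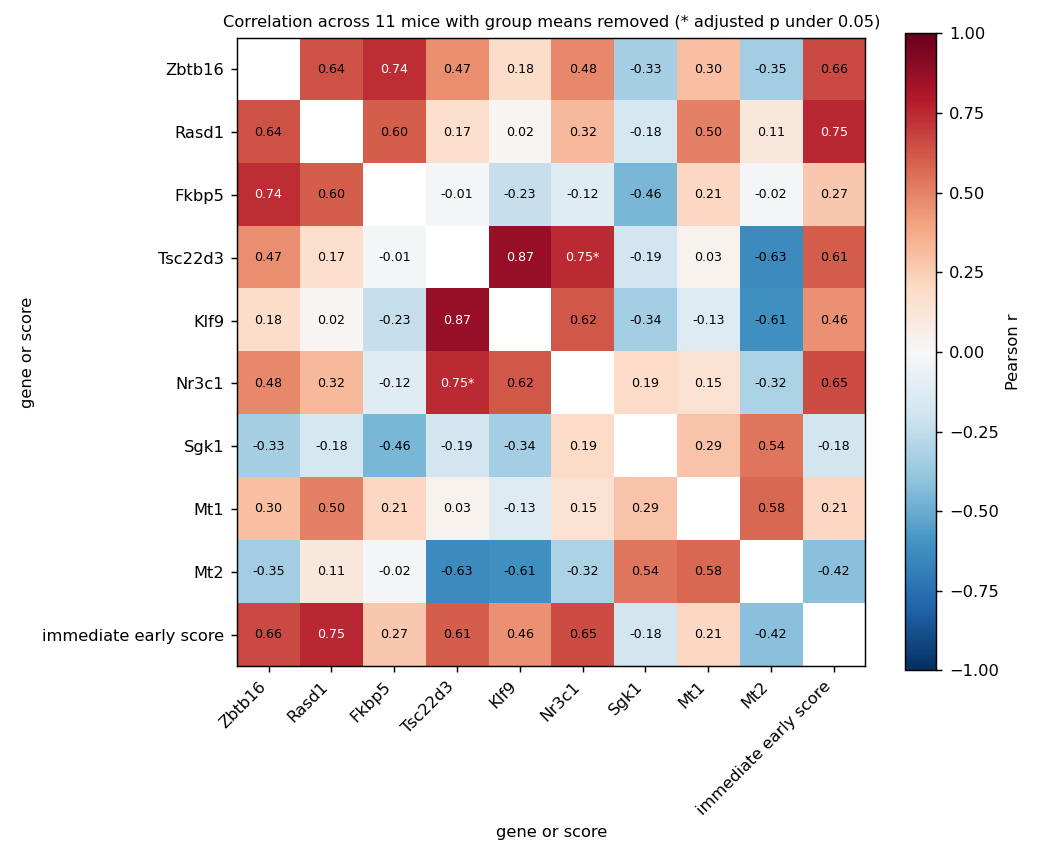
Pearson r across 11 mice after removal of the group means, for each pair of the 9 genes and for each gene with the immediate early score, red positive and blue negative. Tsc22d3 with Nr3c1 (0.75) carries the only asterisk (adjusted p under 0.05). Here r among Zbtb16, Rasd1 and Fkbp5 is 0.60 to 0.74 and among Tsc22d3, Klf9 and Nr3c1 0.62 to 0.87. Zbtb16 has 0.48 with Nr3c1 and 0.47 with Tsc22d3. These r depend on single mice: without PBS 5 and DT 4, Klf9 with Nr3c1 goes from 0.62 to -0.16.

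Across the 10019 genes that averaged at least 100 normalized counts, those most like Zbtb16 within groups over the 11 mice were Mical2 (r = 0.93), Atg4c (0.93), Hspa1a (0.93), Togaram2 (0.89) and Plk2 (0.89). Of these, Hspa1a, the inducible HSP70 chaperone, rose after DT (log2 fold change 0.68, adjusted p = 0.038, limma), as did Plk2, a stress-responsive kinase (0.45, adjusted p = 0.0082). Mical2, Atg4c and Togaram2 did not pass. Those most like Rasd1 were Galnt4 (0.90), Tex2 (0.86), Csnk1e (0.86), Fetub (0.86) and Foxk2 (0.85), of which none passed after DT. PBS 4 was the highest control in all 10 of these genes, which their choice by likeness to genes high in PBS 4 favours. Being the highest of 10019 values, these r are large in part through the choice, and they were not tested. Without PBS 4 the values ranged from 0.72 to 0.92 for the genes like Zbtb16 and from 0.70 to 0.81 for those like Rasd1.

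The tissue was epithelium by its markers, with Krt5 at 85522 ± 4390 (SD, n = 5) normalized counts in the PBS group and 91143 ± 4076 (SD, n = 6) in the DT group. In bulk tissue fewer cells of a type and less RNA per cell cannot be told apart. Of the marker lists for LCs, T cells, innate lymphoid cells, myeloid cells, fibroblasts, endothelium, muscle and melanocytes, 0 genes passed in either direction with limma. The summed level of the 7 LC markers was 1526 to 4059 normalized counts after PBS and 1035 to 2245 after DT. PBS 4 (1526) was at the lower end of its group. Most of this sum came from Cd74 (means of 1361 after PBS and 919 after DT), H2-Ab1 (557 and 373) and H2-Aa (474 and 336). These are genes of MHC class II presentation, which is not confined to LCs. All 7 had a negative log2 fold change (median -0.44). Of these, 2 had an unadjusted p under 0.05 with limma (11.5% of all genes did), Ccr6 (-1.27, adjusted p = 0.28) and Cd74 (-0.50, adjusted p = 0.41). Ccr6 averaged only 5.87 normalized counts after PBS and 2.12 after DT. The medians of the myeloid and fibroblast markers were -0.32 and -0.45, against -0.01 over all genes. Those of the T cell, muscle, innate lymphoid and endothelial markers were -0.32, -0.26, -0.20 and -0.15. Melanocyte and epithelial markers had medians of 0.00 and 0.05. Many of these genes were near the floor, with a mean under 10 for 4 of 5 muscle, 3 of 4 endothelial and 2 of 2 melanocyte markers. Of the 6 fibroblast markers 2 had a positive log2 fold change. They included Dcn, the one with the highest mean (1174 normalized counts after PBS and 1259 after DT, log2 fold change 0.09, SE 0.09). Cd207, which encodes langerin, had 23.9 ± 13.4 (SD, n = 5) and 18.4 ± 1.99 (SD, n = 6). The 6 T cell markers with a value summed to 411 to 541 and 395 to 508, of which Thy1, not confined to T cells, made up most (means of 429 and 439). The other 5 averaged under 10 normalized counts in each group, with log2 fold changes of 0.20 (SE 0.39) for Cd3e, -0.28 (SE 0.37) for Cd3g, -0.80 (SE 0.50) for Cd3d, -0.35 (SE 0.55) for Cd8a and -0.72 (SE 0.42) for Cd4, none of which passed at this depth. Adipocyte markers had no values. The part of these cells in the levels of Zbtb16 and Rasd1 was not tested.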

How the data were processed

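RNA of gingival epithelium from 5 PBS and 6 DT mice was sequenced from stranded poly-A libraries. The values that the authors deposited are a normalized score per gene and mouse, that is HTSeq read counts divided by a DESeq2 size factor. The labels name cutadapt 2.10, TopHat2 2.1.1, HTSeq 2.01, DESeq2 1.36.0 and GRCm39, whereas the study's methods name GRCm38, and the gene annotation used here could not settle this. Promoter windows are those of GRCm38.p6 and were matched by symbol only. Genes with fewer than 10 reads over all mice have no value (36244 genes). In every mouse 100% of low values were whole multiples of 1 read (within 0.1 read), which gives 17509328 to 24325513 reads per mouse.

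Groups were compared with limma 3.58.1 in R 4.3.3 (intensity trend) on log2(normalized count + 1) over 19170 genes, two-sided, with Benjamini-Hochberg adjustment and a threshold of 0.1. Fold changes on this scale understate those of low genes. In simulated data with 200 changed genes among 19170, the procedure recovered 93 of 93 genes changed by a log2 of 1 and 107 of 107 changed by 2, with 23 false calls. The changed genes were drawn from those averaging at least 100 normalized counts, and every gene had the same dispersion. The recovery thus does not cover genes as low or as variable as Zbtb16 and Rasd1. Correlations used exact permutations within groups. Each mouse is a GEO sample, and p-values measure the spread between these 11. The 9 genes and the gene lists were chosen with earlier results of these data known. Named genes were drawn from the 9 genes, up to 6 with the smallest p in each list (with Per1, Dusp1, Nr3c2, Hsd11b1, Mtf1, Fos and Atf3), the first gene of each marker list, and the 5 genes most like Zbtb16 and the 5 most like Rasd1. Ciart, Cry2, Per2, Pdk4, Egr3 and Nr4a3 were named after their values were seen. The alternatives were pseudocounts of 0.5 and 8, a filter at a mean of 10, TMM scaling, quantile normalization, array weights, a replicate block, DT mice alone for the correlations, and leaving out each mouse.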

Additional observations from a re-analysis of the deposited data

Results flagged for a closer look

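Of 18 groups of values (9 genes, PBS and DT), 3 held a mouse that stood apart from the others of its group by Dixon's criterion, which chance alone meets in about 1 in 20 groups. The criterion was applied to log2(normalized count + 1), whereas the values given next are normalized counts. Zbtb16 in PBS 4 was high, at 34.6 normalized counts where the next highest control had 8.75. Tsc22d3 in DT 4 was low, at 1098 where the next lowest DT mouse had 1745, and Klf9 in the same mouse was low, at 413 where the next had 633. The cause of these values was not tested.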

How the results depend on the processing

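Over 18 alternatives the log2 fold changes ranged from 2.14 to 3.22 for Zbtb16, from 1.38 to 2.01 for Rasd1 and from 0.38 to 0.59 for Fkbp5. The 9 genes were picked on these same values, so that the ranges are descriptions and support nothing. Tsc22d3 and Mt1 stayed positive and Sgk1 negative in all 18, whereas Klf9 changed sign without DT 4 (0.04), and Nr3c1 and Mt2 kept their sign in 10 and 14 of 18, at values near 0. With array weights 189 genes were called in all (110 higher, 79 lower) and 5 of the receptor targets (4 higher, 1 lower). Leaving out 1 mouse gave 27 (without DT 5) to 259 (without PBS 5) genes in all, 170 without PBS 4, 29 without PBS 1, 30 without DT 6, 40 without PBS 2, 50 without DT 4, 52 without DT 3 and 61 without DT 1. It gave 2 to 5 receptor targets (5 without PBS 3), 0 to 1 metal response genes (1 without PBS 4), 6 to 14 immediate early genes (6 without DT 5 or DT 6, 7 without PBS 1 or PBS 2), and 0 clock and 0 receptor machinery genes throughout. The number of correlated pairs was 2 with TMM scaling, 0 with quantile normalization and 0 in DT mice alone, and 0 to 2 without 1 mouse, so that the call of Tsc22d3 with Nr3c1 did not hold in 9 of 11 such fits, at r of 0.60 to 0.84. Relations with the immediate early score numbered 0 to 1 without 1 mouse, the 1 being Rasd1 without PBS 5. The cause was not tested, beyond the smaller number of mice in these fits. With the replicate block 35 genes were called (24 higher, 11 lower), but same-numbered mice did not deviate together (correlations of -0.23 to 0.32 over 5 pairs), so that the numbers were not taken as pairs. The numbers are those of the sample titles. The library label of PBS 5 is MINUS6, and pairs by library label were not compared. DT 6 has no partner in this block, and its fold changes equal those of the fit without DT 6 (Zbtb16 2.73 in both). Tests with edgeR and DESeq2 on recovered reads were planned and not run, and the reads recovered here were used for depth and counting error only. Zbtb16 and Rasd1 rest on 5 to 134 reads per mouse, which limits any order among mice within a group.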
